A study of Homo sapiens with 3 samples.

Results

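ZBTB16 and its surroundings are described here through every called region whose centre lay between positions 113900000 and 114150000 of chromosome 11 (hg19). ZBTB16 (gene ID 7704, also known as PLZF or ZNF145) runs from 113930315 to 114121398 on the plus strand of this build, a length of 191.084 kb. Of the 59983 regions in the 3 deposited lists, 30 were members. The list of RNA polymerase II (Pol II) with TBBz gave 23 of its 24782 regions, the list of Pol II with DMSO gave 3 of its 21819, and the list of CK2α gave 4 of its 13382. The stretch was chosen by its excess of TBBz regions over DMSO regions. The counts of the 2 Pol II lists are therefore a description with no test, and they support nothing beyond themselves.

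The data came from chromatin immunoprecipitation sequencing in LNCaP, an androgen-responsive human prostate carcinoma line, at passages 40 to 45. All cells were kept for 3 days in medium with 5% charcoal-stripped serum and then received 100 nM dihydrotestosterone (DHT), an androgen. One Pol II library came from cells given the vehicle DMSO (labelled 25 μM) and the other from cells given 25 μM TBBz, a brominated benzimidazole used as an inhibitor of the kinase CK2, each for 2.5 hours with DHT in the last 1.5 hours. The CK2α library, made with an antibody to a catalytic subunit of CK2, came from cells with DHT and no inhibitor, for 2.5 hours by the treatment label and 90 min by the protocol. Each list rests on 1 library, so no spread between replicates is known and no test between treatments was made. The Pol II libraries share a source label that names TBBz and were told apart by their treatment labels. If they had been exchanged, each direction given here would turn round.

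ZBTB16 encodes a transcription factor of the BTB and zinc finger family that mostly represses its targets. It is known as the partner of the retinoic acid receptor alpha in a fusion protein of acute promyelocytic leukaemia, as a factor that maintains germline stem cells, and as a gene that androgens and glucocorticoids switch on, in prostate cells among others. In general, Pol II that has begun a transcript often pauses a short way past the start, is released into the gene body, and slows again past the end of the gene, where the transcript is cut and the polymerase leaves. The list of a point-peak caller shows where Pol II stands in narrow heaps. It does not show an even layer of Pol II along a gene.

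At ZBTB16 the DMSO list had Pol II regions near the start of the gene and none beyond its opening 2 kb, whereas the TBBz list had 1 at the start and 20 more along the gene. With TBBz the gene held 21 regions, and with DMSO it held 2. CK2α also had 2 regions in the gene, each at the start and each on a DMSO region. Within 1 kb of the start every list had 1 region. Farther into the body there were 20 regions with TBBz, 1 with DMSO and 1 of CK2α. Within 5 kb of the gene end no list had a region, and none had one from there to the edge of the window. Upstream of the promoter there were 2 regions with TBBz, 1 with DMSO and 2 of CK2α.

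**Figure D1:**
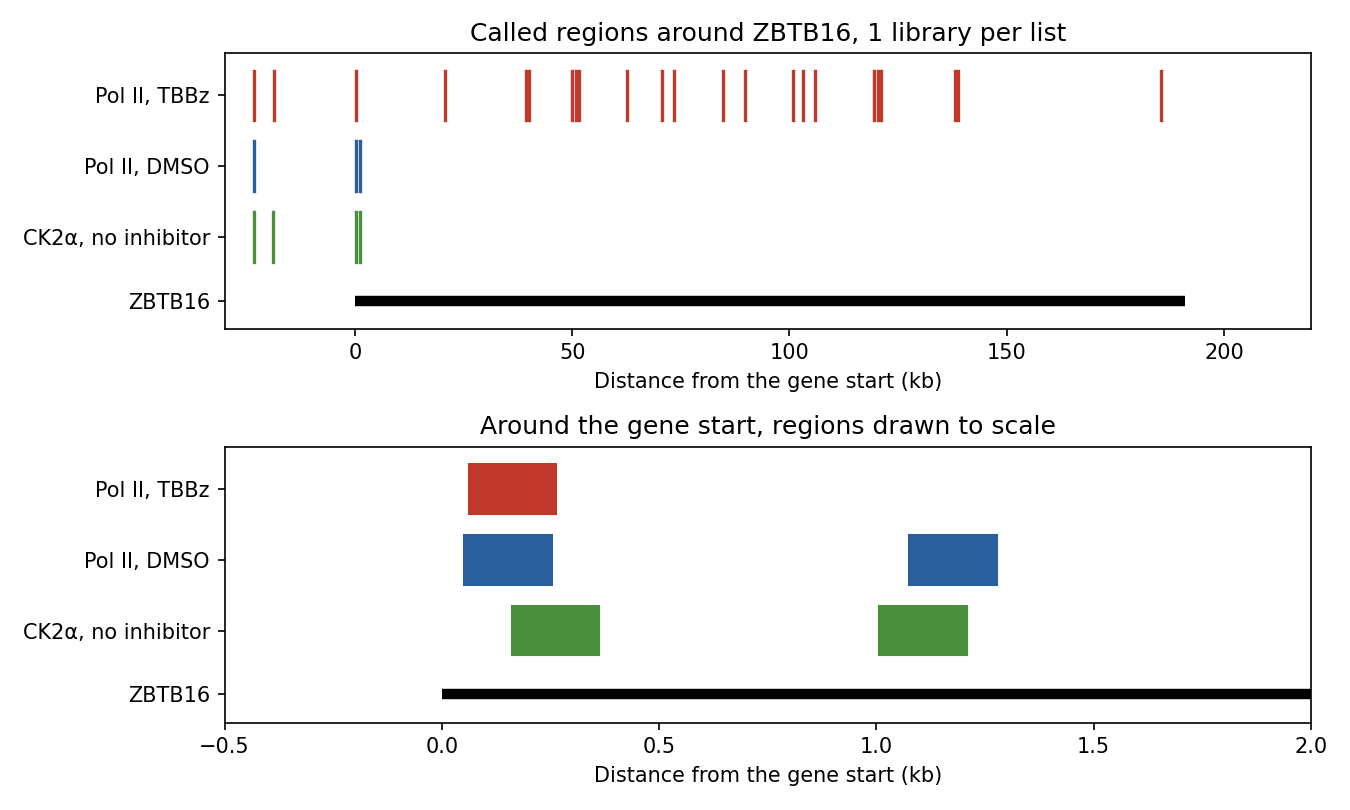
Called regions around ZBTB16 by list, against the distance from the gene start in kb (1 library per list); the upper panel marks each region's centre and the lower panel draws the regions near the start to their width. The 20 TBBz marks past the promoter have no counterpart in the DMSO or CK2α rows, and the second DMSO and CK2α boxes near 1.1 kb have none in the TBBz row.

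Of the 23 TBBz regions in the window, 21 did not overlap a DMSO region by at least 1 bp, which is 91.3%. Over the whole TBBz list the share was 35.0%. Since the locus was chosen on this difference and neighbouring regions of 1 library are not independent, no interval is given and nothing is read from the comparison. Of the 3 DMSO regions, 1 lacked an overlapping TBBz region, against 26.2% of all DMSO regions. The TBBz library was deeper, with 22345614 tags against 15466579 with DMSO, and 19021404 for CK2α. Its regions held 12.6% of its tags against 6.79% with DMSO. The part of depth in the count at ZBTB16 was not tested. The authors' caller also required each candidate site to exceed its local 10 kb background 4-fold, and by this step it dropped 53.7% of the candidates with DMSO and 35.3% with TBBz. A place without a region may therefore still hold Pol II, either too little or too evenly spread to be called.

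At the promoter all 3 lists had a region, and the 3 overlapped. The DMSO region at chr11:113930367-113930567 had its centre 152 bp past the gene start and stood at place 609 of its list. The TBBz region at chr11:113930377-113930577 had its centre 162 bp past the start, 10 bp from that of DMSO, and stood at place 969. The 2 regions shared 191 of their 201 bp. CK2α lay slightly farther in, at chr11:113930477-113930677, with its centre 262 bp past the start and at place 428 of its list, and it overlapped both Pol II regions. All 3 regions stood in the first 4% of their lists, at 2.79% with DMSO, 3.91% with TBBz and 3.20% for CK2α. Places in lists of different length and depth do not measure a change.

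A second site followed about 1 kb downstream, and there the Pol II lists parted in the other direction. DMSO Pol II had a region at chr11:113931391-113931591, centred 1176 bp past the start, at place 835 of its list. CK2α had a region at chr11:113931322-113931522, centred 1107 bp past the start, at place 384, which is earlier than its promoter region, and the centres were 69 bp apart. The TBBz list had no region here. Its nearest centre was that of the promoter region, 1014 bp from the DMSO centre, and in the downstream direction the next TBBz region was 19.598 kb away. Of the first 1000 DMSO regions, 3 had no TBBz centre within 1 kb, which is 0.300%, and the site in ZBTB16 was the last of these. The others were chr19:51364817-51365017 and chr3:128211911-128212111, whose nearest TBBz centres were 6672 and 4506 bp away. The distance of 1 kb was chosen after the values were seen, and the site in ZBTB16 passed it by 14 bp. By the plain overlap rule 6.80% of the first 1000 DMSO regions had no TBBz partner, with a limit of 0.5 kb it was 0.800%, and with 2 kb it was 0.200%, which no longer included ZBTB16. In the opposite sense 1.40% of the first 1000 TBBz regions had no DMSO centre within 1 kb.

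Upstream of the gene, where HTR3A, a subunit of a serotonin-gated ion channel, is the nearest protein-coding neighbour in the RefSeq order, 2 sites were called. The farther one was in all 3 lists. DMSO Pol II was called at chr11:113906908-113907108 (place 6790, 31.1% of the list), TBBz Pol II at chr11:113906926-113907126 (place 8477, 34.2%) and CK2α at chr11:113907010-113907210 (place 2540, 19.0%), centred 23.307, 23.289 and 23.205 kb before the gene start. The nearer one was called with TBBz at chr11:113911492-113911692 (place 11839) and for CK2α at chr11:113911452-113911652 (place 5658), 40 bp apart and 18.723 and 18.763 kb before the start. DMSO Pol II had no region there, and its nearest centre was 4.584 kb from that of TBBz. This was therefore a place with TBBz Pol II and no DMSO Pol II where CK2α had been called in cells without inhibitor. Over the whole CK2α list, 7.10% of regions overlapped TBBz Pol II and not DMSO Pol II.

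All 4 CK2α regions of the window overlapped a Pol II region of one list or the other, against 43.9% of all CK2α regions. Their centres also lay within 1 kb of a Pol II centre, as did 81.7% of all CK2α regions, so 4 of 4 by that measure is near the background. The split over the lists differed from site to site: the farther upstream site and the promoter had CK2α with Pol II in both lists, the nearer upstream site had it with TBBz Pol II, and the site at 1.1 kb had it with DMSO Pol II, a pairing found for 7.94% of all CK2α regions. Not one of the 20 TBBz regions past the promoter overlapped CK2α, against 19.4% of the TBBz list that did. That share is over the whole list, with its leading regions and those shared with DMSO. The 20 are neighbours at a single chosen locus in 1 library, so nothing is read from the comparison. The last CK2α region before the string was the one at 1.1 kb, and the next CK2α region came 149.478 kb after the gene end.

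The string of TBBz regions in the body began at chr11:113950989-113951189, 20.774 kb past the gene start, and ended at chr11:114115701-114115901, 185.486 kb past the start and 5.597 kb before the gene end. It spanned 164.712 kb, or 86.2% of the gene, with its last region, at place 23639, 46.601 kb beyond the one before. Along this stretch the DMSO list was empty. The DMSO list had no region for 339.687 kb, from the one at 1176 bp to chr11:114271078-114271278, which lies 149.780 kb beyond the gene end. In that list 91.8% of the distances between neighbours were shorter and the median was 35.2 kb, so a stretch of this length without a DMSO region was not rare. The distance of each string region to the nearest DMSO centre ran from 19.598 kb for the first to 155.377 kb for the last, whose nearest DMSO region was the one beyond the gene end.

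When the gene was divided into 8 equal parts of about 23.9 kb, the TBBz regions numbered 2, 2, 5, 3, 3, 5, 0 and 1 from start to end. The 2 DMSO and the 2 CK2α regions were all in the opening part. TBBz regions thus stood in 7 of the 8 parts. The empty one, from 143.313 to 167.198 kb past the start, fell within the longest gap of the gene.

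The TBBz regions were closely and unevenly spaced. Over the 20 gaps between neighbouring centres in the gene the median was 6.56 kb (quartiles 0.904 and 11.9 kb, range 0.599 to 46.6 kb), against a median of 30.7 kb over the whole TBBz list (quartiles 9.27 and 90.9 kb). The gaps were of 2 kinds. In 6 of the 20 the centres lay 1 kb or less apart, between 599 and 923 bp. The shortest distance between neighbours anywhere in the TBBz list was 436 bp. The other 14 ran from 2.452 kb upwards. When neighbours within 1 kb were joined, the 20 regions past the promoter formed 14 sites, of which 10 held 1 region, 2 held 2 and 2 held 3. The median distance between these sites was 10.96 kb. Counted as regions, 10 of the 20 had another TBBz region within 1 kb, while 15.7% of the TBBz list did. Because the locus was chosen for its many TBBz regions, close spacing largely follows from the choice. Nothing is read from these comparisons with the whole list.

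The close sets were found on both sides of the middle of the gene. The first was a pair at 39.402 and 40.001 kb past the start, 599 bp apart. A set of 3 followed from 49.886 to 51.496 kb, with steps of 923 and 687 bp. Another set of 3 stood from 119.521 to 121.112 kb, with steps of 743 and 848 bp, and the second pair stood at 138.200 and 138.885 kb, 685 bp apart. Between the sets of 3 the sites were single regions, and the shortest steps among them were 2.755 kb (from 70.738 to 73.493 kb) and 2.452 and 2.619 kb (from 100.770 by way of 103.222 to 105.841 kb). The longest gap was the last one, 46.601 kb, from the pair near 138 kb to the region before the gene end.

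**Figure D2:**
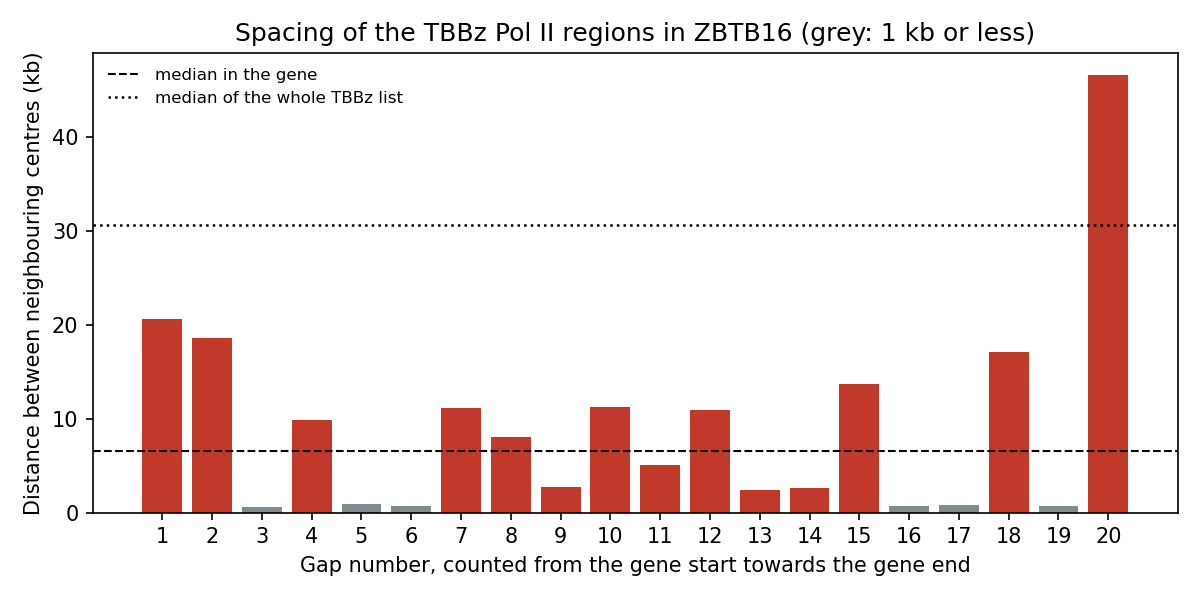
Distance in kb between neighbouring TBBz region centres within ZBTB16, in order from the promoter region (gap 1 starts there) to the last region of the gene; grey bars are gaps of 1 kb or less. The dashed line is the median in the gene (6.56 kb) and the dotted line the median of the whole TBBz list (30.7 kb), which only the last gap of 46.6 kb exceeds.

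At the gene end neither Pol II list had a region. The last TBBz region lay 5.597 kb before the annotated end, just outside the 5 kb zone, and beyond the end the TBBz list had no region until chr11:114271068-114271268, 149.770 kb away, which overlapped the DMSO region named above. The nearest protein-coding neighbour on this side in the RefSeq order is NNMT, which encodes nicotinamide N-methyltransferase. The stretch from the last region of the string to that next one, 155.367 kb, was longer than 84.3% of the distances between neighbours in the TBBz list.

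The order of the deposited lists was used as a guide to strength, an assumption that could not be checked because the score column is 1 throughout. The order turned out to be coarse. Each list was made of stretches within which regions ran in order of chromosome and position, as a sort with many ties would leave them: 349 such stretches in the TBBz list, 234 in the DMSO list and 132 in the CK2α list. The 20 string regions fell in 17 stretches that held between 42 and 1044 regions. Places within a stretch carry no order beyond position. This applied to 6 string regions that shared a stretch with another: the regions at 39.402 and 49.886 kb at places 20506 and 20507, those at 40.001 and 51.496 kb at places 21779 and 21780, and those at 119.521 and 138.200 kb at places 12672 and 12673. These pairs follow each other in the list and cannot be ranked by place.

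Across the string the places ran from 9032 to 23639 with a median of 14273, or 36.4% to 95.4% of the list, well after the promoter region at 3.91%. The earliest was chr11:114050479-114050679, the middle one of the set of 3 at 120.264 kb. The latest was chr11:114115701-114115901, the one nearest the gene end. Of the 20 regions, 2 stood before place 10000 and 6 after place 20000. Among all 14608 TBBz regions between places 9032 and 23639, 44.1% had no DMSO overlap and 29.2% had no DMSO centre within 2 kb. Each of the 20 string regions lacked a DMSO region by both measures. The locus was chosen on this lack and all 20 lie in a single stretch without DMSO regions, so nothing is read from the comparison. Over the whole list 21.1% had no DMSO centre within 2 kb.

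The places changed along the gene by sections rather than steadily. The first region of the string, at 20.774 kb, stood at place 13192. The 6 regions from 39.402 to 62.672 kb stood late, between places 18788 and 21780. All 12 regions from 70.738 to 138.885 kb stood earlier than each of these 6, between places 9032 and 17031 with a median of 12672.5. The last region was again late, at place 23639. The limits of these sections were set after the values were seen. Spearman's rho of place against position depended on which regions were taken. It was -0.20 over the 21 regions of the gene, -0.39 without the promoter region, and -0.62 without the 2 regions farthest from the median position. With only the first 75% of the list it was 0.059, of the opposite sign. These coefficients are over regions of 1 library and carry no p-value.

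**Figure D3:**
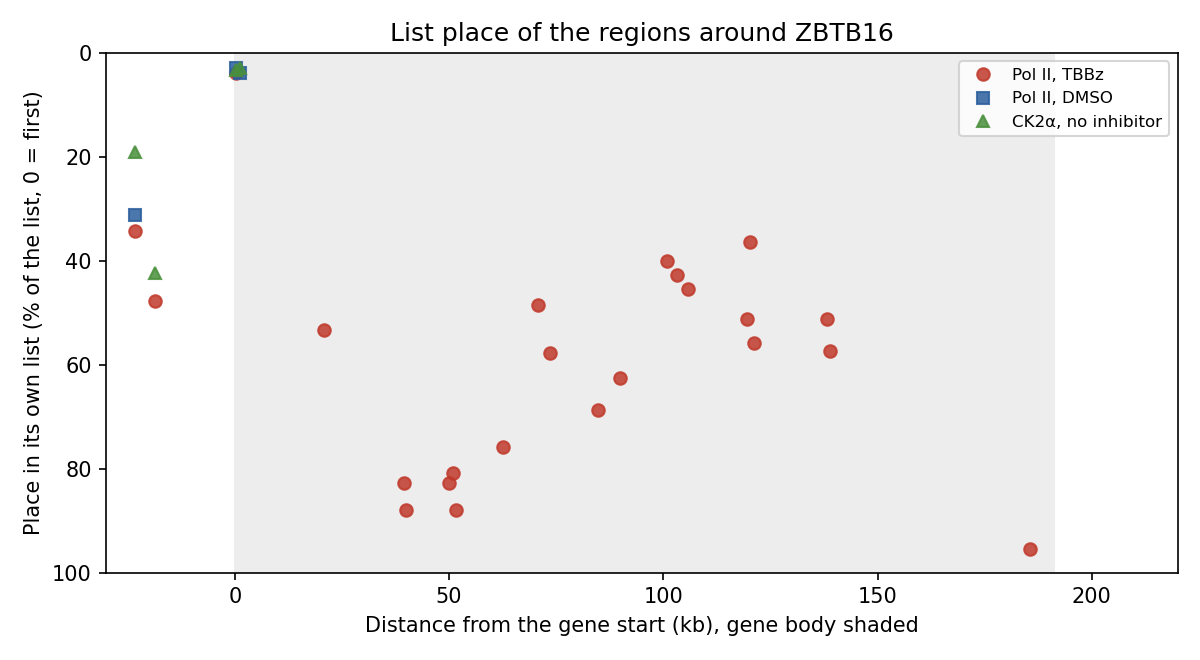
Place of each region in its own list, as a percent of the list with the first place at the top, against the distance from the gene start in kb; the gene is shaded and colours and shapes mark the 3 lists. Promoter regions of all 3 lists sit in the first 4%, and the TBBz regions from 70.738 to 138.885 kb sit above those from 39.402 to 62.672 kb.

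Set against the genome, the string at ZBTB16 was the longest of its kind in the 2 Pol II lists, and the locus was chosen on that excess. When both lists were put in order of position, the TBBz regions fell into 16117 runs not interrupted by a DMSO region, and 60.8% of these held 1 region. TBBz regions that overlap DMSO were counted in these runs too. Runs of 5 or more numbered 154, and 2 runs held 10 or more. The run that started with the string had 21 regions. Of these, 20 lay in the gene and the last was the shared region 149.770 kb beyond it. Without regions that overlap DMSO the run held 20, and the next longest in the genome held 17. In the reverse direction the DMSO list had 24 runs of 5 or more and none of 10 or more, and its longest, at chr14:38380195-38597395, held 9 regions. The TBBz list was also longer and came from a deeper library, and their part in this difference was not tested.

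**Figure D4:**
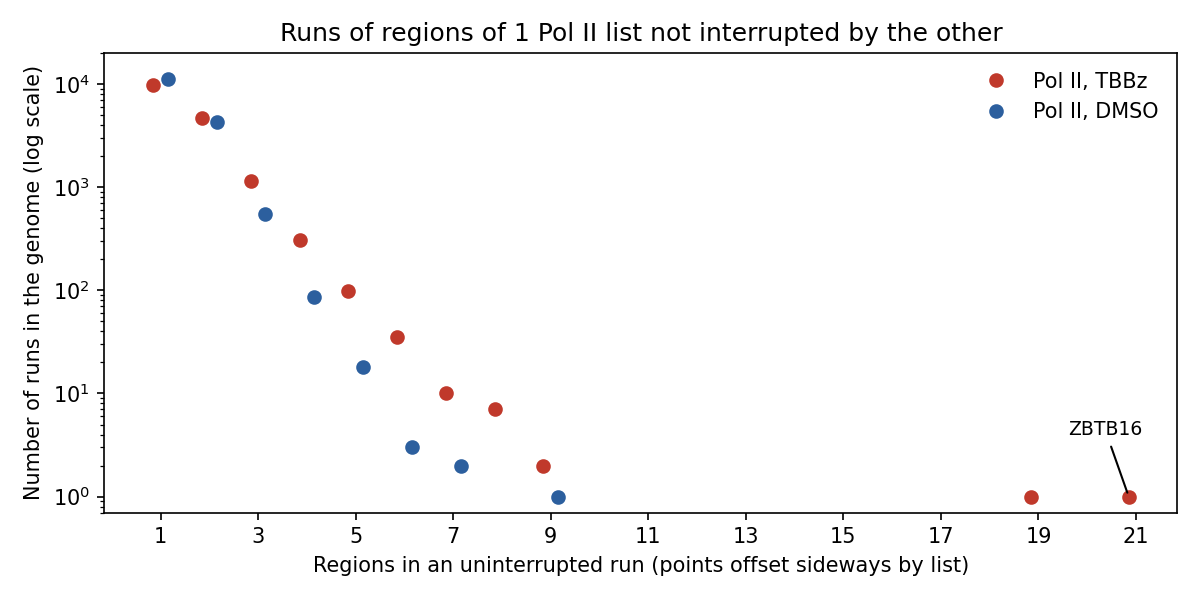
Number of runs (log scale) by the number of regions in the run, for TBBz regions not interrupted by a DMSO region and for DMSO regions not interrupted by a TBBz region. The 2 TBBz runs with 21 (ZBTB16) and 19 regions stand apart from all other TBBz runs, which hold at most 9.

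The run most like ZBTB16 was at chr18:55888737-56217242, with 19 regions over 328.305 kb. Its median gap was 10.8 kb against 6.56 kb in the ZBTB16 run, 1 of its gaps was 1 kb or less against 6, and its median place was at 68.9% of the TBBz list against 57.4%. Neither run had a TBBz region that overlapped CK2α, and 1 CK2α region lay within the bounds of the ZBTB16 run, beside its last region, against none at chromosome 18. The next in length were chr4:77637342-77818661 and chr2:189157574-189197475 with 9 regions each, then chr1:46269220-46598348 and chr2:181564691-181692282 with 8 each. Their median places, from 71.8% to 79.3% of the list, were later than that of ZBTB16. The run at chr2:189157574-189197475 was the most compact, with a median gap of 5.54 kb over a span of 39.7 kb.

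**Figure D5:**
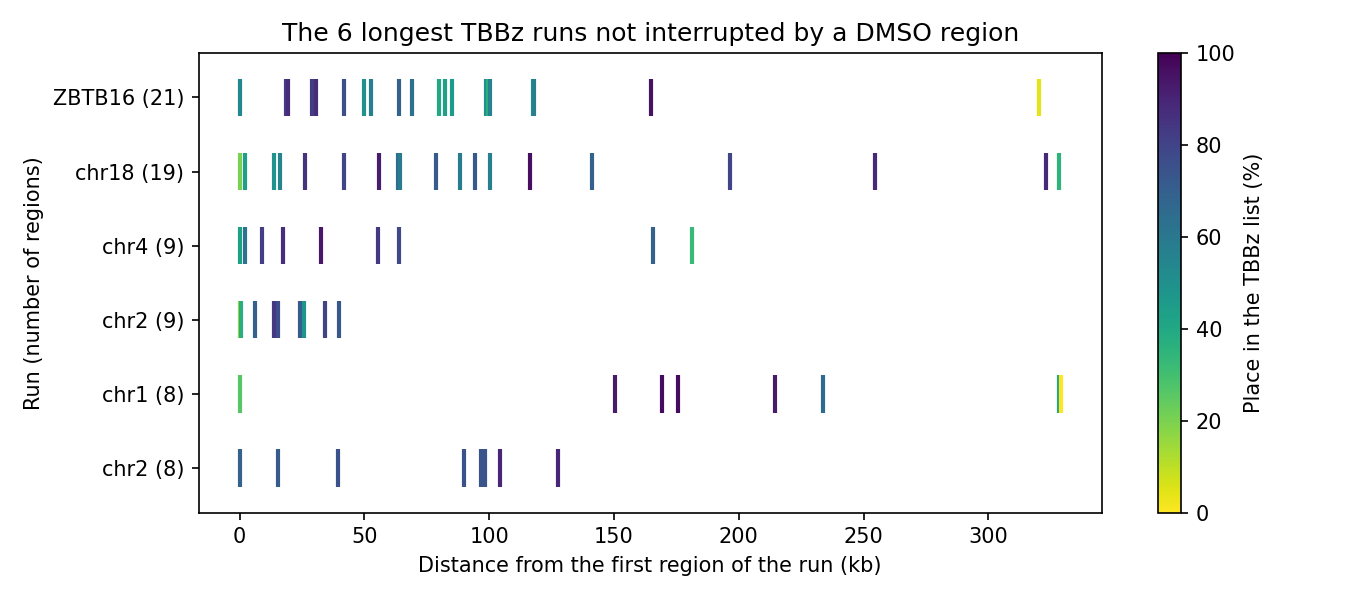
Positions of the TBBz regions in the 6 longest runs without a DMSO region between them, in kb from the first region of each run, coloured by place in the TBBz list as a percent (yellow is early, dark is late). ZBTB16 and the run on chromosome 18 hold 21 and 19 regions and the others 8 or 9.

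The number of TBBz regions at ZBTB16, on which the locus was chosen, is set beside other stretches here as a description. A stretch of the same length as the gene, opened at each of the 24782 TBBz regions in turn, held a median of 4 TBBz and 3 DMSO regions. As many as 21 TBBz regions were found in 59 of these overlapping stretches, or 0.238%, and the most was 26. Of the 59, 4 touched ZBTB16 and held 1 to 3 DMSO regions, and 2 touched the start of the chromosome 18 run and held 1 and 2. The remaining 53 held between 9 and 20 DMSO regions. Most of the 59 overlapping stretches were thus rich with DMSO too, but the number of separate loci behind the remaining 53 was not counted. Those at ZBTB16 and at the chromosome 18 locus held few DMSO regions, and for ZBTB16 this is what the locus was chosen on.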

How the data were processed

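The input was 3 deposited lists of regions, 1 per library. The submitters' processing notes name Bowtie, HOMER and the build hg19; for none of these tools is a version given in the sources used. Peaks were called by the authors library by library with HOMER's factor style, per the file headers, with settings of 200 bp for the peak size, 500 bp for the minimum distance, 150 bp for fragments and a false discovery rate of 0.001. The deposited centres nevertheless come as close as 436 bp with TBBz, 404 bp with DMSO and 413 bp for CK2α. The command names no control library. The deposited score is 1 for every region and was not used. Starts, which count from 0 in the lists, were raised by 1. Overlap meant at least 1 bp.

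Tag totals come from the file headers. A list held 23.5 tags per region on average for CK2α, 48.1 with DMSO and 114 with TBBz.

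The promoter was taken as 1 kb to either side of the gene start and the gene end as 5 kb to either side. A run was a series of TBBz regions, in order of position, with no DMSO region between them. TBBz regions that overlap DMSO were counted unless stated otherwise. Regions were named by a rule: all promoter, gene end, DMSO and CK2α regions, the first, last, earliest and latest of the string, and the 5 longest other runs. Named outside this rule were the upstream TBBz regions, the next regions beyond the gene, the other leading DMSO regions without a near TBBz centre, and the longest DMSO run. The members, zones and rules were chosen with earlier results of these data known. Neighbouring genes were taken by their order in RefSeq (GRCh38.p14), without positions. Exons, introns and sequence were not analysed here, so the planned motif search was not run. Overlap, runs and stretches of order were tested on simulated data. Stretches were scored there only at levels held by many regions, so short ones were not tested. The median stretch held 11 regions in the CK2α list, 27.5 in the DMSO list and 54 in the TBBz list. Python 3.11.15, NumPy 2.4.6, SciPy 1.17.1 and Matplotlib 3.10.9 were used.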

Additional observations from a re-analysis of the deposited data

How the results depend on the processing

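Of the 50 alternative values computed, 41 stayed close to those reported (within the exact binomial interval for the share, which treats regions as independent, within 1.5 times for counts, distances and places, within 0.1 for the coefficient). Some of these could not have changed, so the tally is no measure of robustness. Cutting the TBBz list leaves the DMSO and CK2α counts as they are. A narrower gene end zone cannot add regions where the wider one had none. With the first 75% of each list the window held 16 TBBz regions and the run 14, and with the TBBz list at the length of the DMSO list they held 22 and 20; the run remained the longest in the genome under both, with a gap limit of 50 kb, and without regions that overlap DMSO. The share of TBBz regions without a DMSO partner ran from 87.5% to 91.3%. A promoter zone of 5 kb took in the second site and gave 2 regions with DMSO and 2 of CK2α, and a gene end zone of 10 kb gave 1 TBBz region. Joining regions within 1 kb raised the median spacing to 10.96 kb. Spearman's rho between list place and position changed sign to 0.059 with the first 75% of each list. It was -0.39 with the TBBz list at the length of the DMSO list and also without promoter and gene end regions, -0.40 when stretches of the list replaced places in that set, and -0.62 without the 2 regions farthest from the median position; the cause was not tested. The joining of regions, the use of stretches, and the leaving out of the 2 farthest regions and of regions that overlap DMSO were chosen after the data were seen. No paired analysis was possible because there was a single library in every group. The limit that depth sets on the DMSO list was not tested, since reads were not thinned.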
